A study of Mus musculus with 9 samples.

Results

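The 10 genes described here code for regulators and targets of the unfolded protein response and were chosen by name from 13081 genes in the table. They are the transcription factor genes Atf4, Atf6, Xbp1 and Ddit3, the folding factor genes Hyou1, Calr, Sdf2l1 and Creld2, and the degradation genes Herpud1 and Sel1l. Their mRNA was compared between kidneys of wild-type mice of 3 months (young, n = 4) and of 16 months (old, n = 5), by sequencing of the 3' ends of transcripts from whole-kidney RNA. No treatment beyond age is given in the labels. Library titles carry 1 prefix for the young and another for the old, so a difference in handling between these series and the difference in age cannot be told apart. The labels list the 9 libraries as separate samples without naming the animals, so p-values measure the spread between these samples.

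The unfolded protein response senses unfolded protein in the lumen of the endoplasmic reticulum (ER) through membrane proteins. IRE1, the product of Ern1, cuts Xbp1 mRNA, and the ligase RTCB joins the ends into the form that codes for the active factor. ATF6 is cleaved in the Golgi to free a transcription factor, and PERK, the product of Eif2ak3, phosphorylates eIF2alpha, which lowers translation in general while favouring that of Atf4 mRNA. The targets include chaperones, folding enzymes and the machinery of ER-associated degradation (ERAD), by which misfolded proteins leave the ER for the proteasome. Splicing, cleavage and translation are steps that gene-level counts of 3' ends do not measure, and the values here are levels of mRNA.

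Because XBP1 and ATF6 act on targets through short promoter sequences, those of the 3 genes that held one of the elements searched are shown. Promoter sequences from RefSeq (mouse build GRCm38.p6) matched 8 of the 10 genes, which leaves Atf6 and Hyou1. Both strands of the 250 bases before each start were searched. The ER stress response element (ERSE), CCAAT and CCACG with 9 bases between them, was found for Calr and Creld2, and in 0.113% of 32851 promoters. ERSE-II, ATTGG and CCACG with 1 base between them, was found for Herpud1, and in 0.0304% of promoters. The C/EBP-ATF response element (CARE, TGATGNAA), to which ATF4 binds, was also found for Herpud1, and in 3.45% of promoters. The sequence TGACGTGG, known as UPRE, was in 0.563% of promoters and in none of the 8. The CCAAT and CCACG ends of ERSE occur alone far more often, CCAAT in 33.8% of promoters and in 7 of the 8, and CCACG in 28.3% and in 6 of the 8. The windows below run from 180 to 11 bases before the start, 5′ to 3′ on the strand of the gene, with the ERSE, ERSE-II or CARE match in capitals. They lie at chr8:84846942-84847111 (minus strand) for Calr, chr15:88819466-88819635 (plus) for Creld2 and chr8:94386249-94386418 (plus) for Herpud1.
Calr: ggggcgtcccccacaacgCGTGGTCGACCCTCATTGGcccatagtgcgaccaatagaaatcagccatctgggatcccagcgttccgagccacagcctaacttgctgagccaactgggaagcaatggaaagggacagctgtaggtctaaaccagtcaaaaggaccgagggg
Creld2: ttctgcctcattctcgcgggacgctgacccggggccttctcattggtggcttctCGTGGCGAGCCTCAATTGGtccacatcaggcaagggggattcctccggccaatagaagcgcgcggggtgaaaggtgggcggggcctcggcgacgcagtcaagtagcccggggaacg
Herpud1: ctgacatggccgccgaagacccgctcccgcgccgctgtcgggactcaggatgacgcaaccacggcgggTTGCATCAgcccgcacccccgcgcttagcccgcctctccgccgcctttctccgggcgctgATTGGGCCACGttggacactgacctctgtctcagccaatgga
Both ERSE matches are on the reverse strand, 162 to 144 bases before the start of Calr and 126 to 108 before that of Creld2. In Herpud1 the CARE match lies 112 to 105 bases and the ERSE-II match 52 to 42 bases before the start. A match describes the letters of these windows only.

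All 10 genes passed the filter on low values, and 6 of 10 differed between the ages at an adjusted p-value under 0.05 (limma, Benjamini-Hochberg), which is referred to as called. Xbp1, Sdf2l1 and Herpud1 were lower in old kidneys and Ddit3, Atf6 and Sel1l higher, whereas Atf4, Hyou1, Calr and Creld2 were not called. Of 12667 genes tested, 59.7% were called, 29.2% higher and 30.5% lower in old kidneys, so the share of the 10 genes lay at that of all genes. The values of the ages did not overlap for 4 of the 10 genes (Atf6 higher, Xbp1, Sdf2l1 and Herpud1 lower), against 49.0% of genes tested, 23.3% higher and 25.7% lower. Xbp1, Sdf2l1, Ddit3 and Atf6 were called with at least a 1.5-fold change, 4 of 10 against 45.1% of genes tested. The median log2 fold change was -0.18 for the 10 genes, and that of all genes was -0.0027. The median of the 10 was -0.092 without young replicate 4, -0.043 with mitochondrial genes left out and -0.069 with the trend of fold change with transcript length removed. Fold changes are differences of mean log2(normalised count + 1), old minus young, and understate the change of genes with low counts. Levels are not compared between genes.

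Libraries held 4486406 to 6355095 reads in listed genes. Mitochondrially encoded genes took 27% to 29.7% of the reads in young libraries and 35.8% to 38.1% in old ones, and the mitochondrial ribosomal RNAs alone 2.98% to 4.46% and 21.8% to 25.4%. All 8 proximal tubule markers were in the table, at summed levels of 34537 to 35865 normalised counts in young and 31781 to 40102 in old libraries, whereas none of 5 adrenal markers was. Slc34a1, the largest part of that sum, was not called, and of the other 7 proximal tubule markers 3 were called higher (among them Slc5a12, 1.63, and Lrp2, 0.95) and 4 lower (among them Slc22a6, -1.26, and Slc13a3, -0.73; limma adjusted p under 0.05). Plasma cells are secretory cells rich in ER. Of the 9 plasma and B cell markers, 5 were in the table, and their sum was 435 to 1367 normalised counts in young and 2292 to 7894 in old libraries, with Jchain, Igkc, Ighm and Igha called higher and Sdc1 not called. Mzb1, Iglc2, Cd79a and Tnfrsf17 were not in the table. Sums of the ages also did not overlap for the 6 endothelial markers (1191 to 1314 normalised counts in young and 1604 to 1939 in old libraries), the 3 of the distal convoluted tubule (2019 to 2722 and 3977 to 4850), the 4 of the thick ascending limb (7270 to 7960 and 8391 to 11748) and the 4 of intercalated cells (620 to 689 and 424 to 535). Not all markers followed their sum. Of the distal convoluted tubule markers 2 were called higher and 1 lower (Pvalb, -0.44). Of the intercalated cell markers 3 were called lower and 1 higher (Slc4a1, 0.63). Only Slc12a1 of the thick ascending limb markers was called (higher, 0.74). Among the endothelial markers 4 were called higher, and Cdh5 and Emcn were not called. The part of these RNAs and cells in the results that follow was not tested, and in whole kidney fewer cells of a type and less RNA per cell cannot be told apart.

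Xbp1, the factor that IRE1 activates and that drives chaperone, ERAD and secretory pathway genes, was lower in old kidneys. It stood at 514, 375, 290 and 336 normalised counts in young replicates 1 to 4 and at 97.8, 225, 137, 144 and 147 in old replicates 1 to 5. Every old library lay below every young one, with old replicate 2 nearest to the young and young replicate 1 highest. The mean was 379 ± 96.7 (SD, n = 4) in young and 150 ± 46.4 (SD, n = 5) in old kidneys, 2.52-fold lower, with a log2 fold change of -1.35 (SE 0.19, 95% CI -1.75 to -0.95, limma adjusted p = 6.72e-06). Its size exceeded that of 87.0% of genes tested. Between 83 and 628 reads per library stood behind these values, and the variation within each age (CV 25.5% in young, 30.9% in old) was above that of counting alone (5.06% and 8.72%). The gene lies at chr11:5520659-5525893 on the plus strand (GRCm38, 5 exons in its longest transcript), and the counts join its spliced and unspliced forms.

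Ddit3 and Atf6 were higher in old kidneys. Ddit3 codes for CHOP, a factor induced downstream of ATF4 and associated with cell death under lasting ER stress, and was at 43.4, 31.1, 43.1 and 47.1 normalised counts in the young and at 76.6, 47.0, 91.3, 105 and 130 in the old libraries. Old replicate 2 lay just below the highest young library, and the other 4 old libraries lay above all young ones. The mean rose from 41.2 ± 6.96 (SD, n = 4) to 90.2 ± 31.2 (SD, n = 5), 2.19-fold, with a log2 fold change of 1.05 (SE 0.24, 95% CI 0.56 to 1.55, limma adjusted p = 0.000854). Ddit3 had 32 to 123 reads per library, for which counting alone gives a CV of 15.2% in young and 11.6% in old libraries, against 16.9% and 34.6% observed. The Ddit3 gene (chr10:127290774-127296288, plus strand) overlaps the antisense genes Gm4189 and Mars, by at most 68 bases, and the counting used strand. Atf6, the membrane-bound sensor, was at 86.8, 74.8, 83.3 and 89.6 normalised counts in the young and at 117, 139, 135, 118 and 128 in the old libraries, so the lowest old library was above the highest young one. Its mean rose from 83.6 ± 6.42 (SD, n = 4) to 127 ± 10.02 (SD, n = 5), 1.52-fold, with a log2 fold change of 0.60 (SE 0.13, 95% CI 0.32 to 0.87, limma adjusted p = 0.000665). The longest Atf6 transcript has 7246 bases (chr1:170704674-170867771, minus strand). Removal of the trend of fold change with transcript length over all genes lowered the Atf6 fold change to 0.24, which was not called (limma adjusted p = 0.127).

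Atf4, whose product activates amino acid supply and stress genes and the gene Ddit3, was not called. It was at 587, 504, 620 and 643 normalised counts in the young and at 618, 538, 573, 769 and 1029 in the old libraries. Old replicates 4 and 5 lay above all young libraries, and the other 3 old libraries lay within the young range. The means were 588 ± 60.6 (SD, n = 4) and 705 ± 201 (SD, n = 5), with a log2 fold change of 0.22 (SE 0.15, 95% CI -0.09 to 0.54, limma adjusted p = 0.208). Leaving out the mitochondrial genes and rescaling moved the median of all genes by 0.14 and Atf4 to 0.37 (limma adjusted p = 0.0348), and removing the length trend gave 0.46 (limma adjusted p = 0.0157), so the call of Atf4 depended on the scaling. Without old replicate 5 the log2 fold change was 0.078 (limma adjusted p = 0.590). In both Atf4 and Ddit3, old replicate 5 was the highest and old replicate 2 the lowest of the old libraries.

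**Figure D1:**
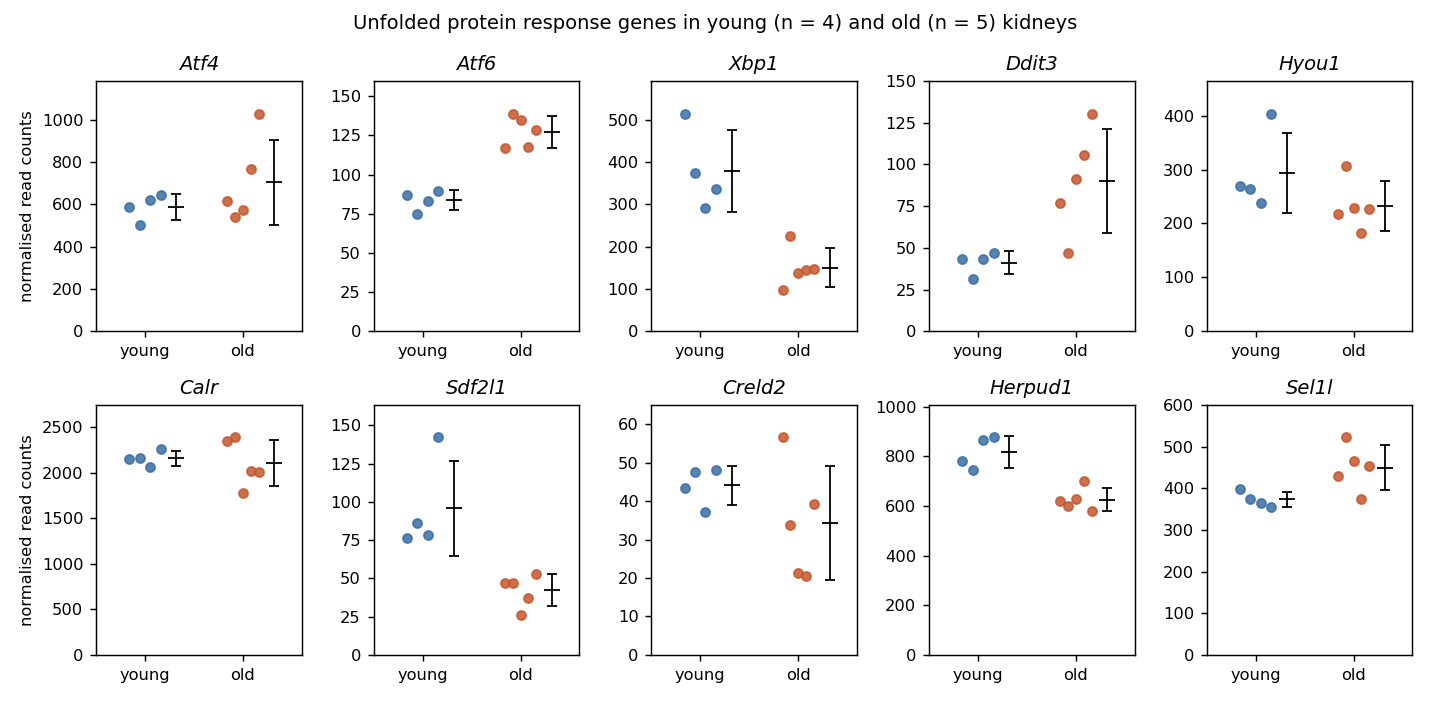
Normalised counts of the 10 genes in each library, 1 panel per gene, with young (n = 4) and old (n = 5) libraries as points, their mean as a short line beside them and the SD as an error bar. The ages do not overlap in Xbp1, Sdf2l1 and Herpud1 (old lower) or in Atf6 (old higher), and old replicate 2 of Ddit3 reaches the young range.

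Among the folding factors, Sdf2l1 alone was called, and the difference between it and the others was not tested. Sdf2l1, an ER protein that works with the BiP cochaperone Dnajb11, was at 76.2, 86.5, 78.4 and 142 normalised counts in the young and at 47.1, 47.0, 26.4, 37.3 and 53.0 in the old libraries. All old libraries lay below all young ones, and young replicate 4 stood well above the other 3. The mean fell from 95.8 ± 31.2 (SD, n = 4) to 42.2 ± 10.5 (SD, n = 5), 2.27-fold lower, with a log2 fold change of -1.16 (SE 0.22, 95% CI -1.62 to -0.69, limma adjusted p = 0.000208). It had 26 to 157 reads per library. Xbp1 kept its direction and call under all 20 alternatives, and Ddit3 and Sdf2l1 under the 19 in which they were tested (a minimum mean of 100 normalised counts left both out), with log2 fold changes of -1.51 to -1.12 for Xbp1, 0.90 to 1.44 for Ddit3 and -1.25 to -0.78 for Sdf2l1. The gene is at chr16:17130138-17132383 on the minus strand.

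Hyou1, which codes for the large chaperone that exchanges nucleotide on BiP, was at 269, 264, 238 and 404 normalised counts in the young and at 218, 307, 229, 182 and 226 in the old libraries. The ages overlapped, with young replicate 4 above the rest and old replicate 2 above 3 of the young. Means of 294 ± 74.5 (SD, n = 4) and 232 ± 45.9 (SD, n = 5) gave a log2 fold change of -0.33 (SE 0.16, limma adjusted p = 0.0785). It was called lower without old replicate 2 (-0.43, limma adjusted p = 0.0158), without young replicate 3 (-0.42, adjusted p = 0.0449) and with the length trend removed (-0.47, adjusted p = 0.0163), whereas it was not called at -0.16 without young replicate 4 and at -0.19 with mitochondrial genes left out (limma adjusted p = 0.358 and 0.333). Creld2, an ER protein with disulfide isomerase activity whose promoter held an ERSE, was at 43.4, 47.6, 37.3 and 48.0 normalised counts in the young and at 56.6, 33.9, 21.3, 20.5 and 39.3 in the old libraries. Old replicate 1 was the highest of all 9 libraries and old replicates 3 and 4 the lowest. Means of 44.1 ± 4.99 (SD, n = 4) and 34.3 ± 14.8 (SD, n = 5) gave a log2 fold change of -0.44 (SE 0.26, 95% CI -0.997 to 0.11, limma adjusted p = 0.154). It was -0.65 without old replicate 1 (limma adjusted p = 0.0301), and -0.30 and -0.29 without old replicates 3 and 4 (limma adjusted p = 0.322 and 0.345). With the length trend removed it was -0.11 (limma adjusted p = 0.730). At 21 to 53 reads per library, counting alone gives Creld2 a CV of 14.5% in young and 18.6% in old libraries, against 11.3% and 43.2% observed.

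Calr codes for calreticulin, the soluble lectin chaperone that binds glycoproteins and calcium, and its promoter held the other ERSE. It was at 2152, 2162, 2067 and 2264 normalised counts in the young and at 2350, 2390, 1784, 2022 and 2005 in the old libraries. Old libraries lay on both sides of the young. The means were 2161 ± 80.8 (SD, n = 4) and 2110 ± 256 (SD, n = 5), with a log2 fold change of -0.04 (SE 0.098, 95% CI -0.25 to 0.16, limma adjusted p = 0.729). With 1759 to 2628 reads per library, counting error was 2.06% in young and 2.24% in old libraries. The sign depended on the scaling, with 0.10 when mitochondrial genes were left out and 0.18 with the length trend removed, neither of them called. Of the 50-base stretches of its transcripts, 0.343% also occur in the pseudogene Calr-ps.

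**Figure D2:**
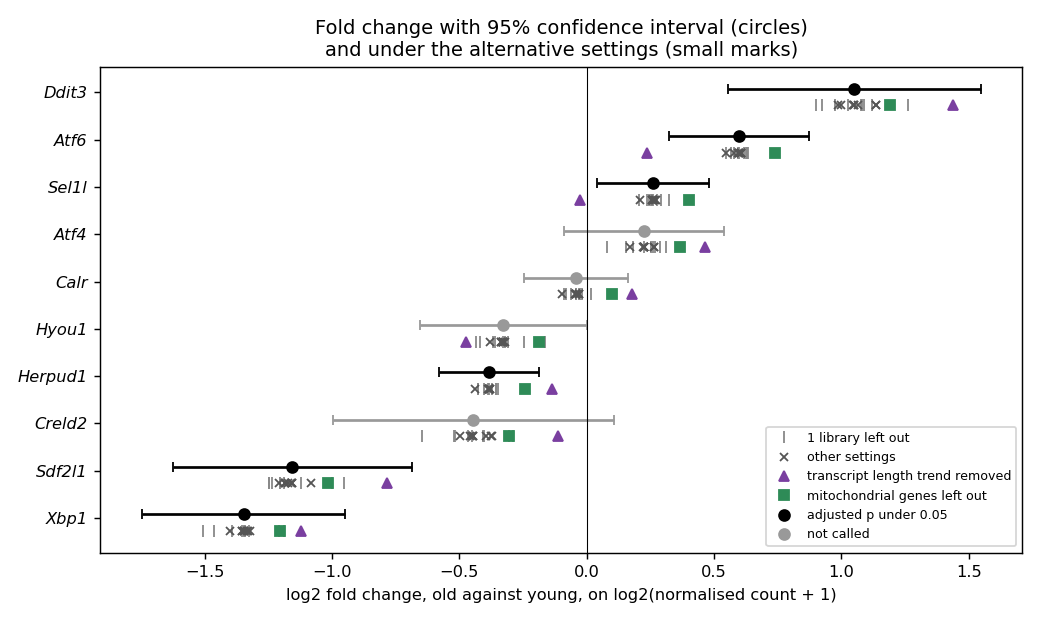
Log2 fold change of each of the 10 genes, old against young, on the log2(normalised count + 1) scale, with the 95% confidence interval of limma (circles, black where called and grey where not), in order of size. The small marks under each circle give its value with 1 library left out, with mitochondrial genes left out (squares), with the transcript length trend removed (triangles) and under the other settings (crosses). Xbp1 (-1.35) and Sdf2l1 (-1.16) are the lowest and Ddit3 (1.05) the highest, and the intervals of Atf4, Hyou1, Calr and Creld2 reach or cross 0.

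Of the degradation genes, Herpud1 fell and Sel1l rose, both with smaller fold changes than the other 4 called genes. Herpud1, a membrane scaffold of the ERAD ligase complex, was at 782, 744, 864 and 876 normalised counts in the young and at 621, 599, 627, 700 and 579 in the old libraries, and the ages did not overlap. Its mean fell from 817 ± 63.8 (SD, n = 4) to 625 ± 45.6 (SD, n = 5), with a log2 fold change of -0.38 (SE 0.094, 95% CI -0.58 to -0.19, limma adjusted p = 0.00167). With mitochondrial genes left out it was -0.24 and still called (limma adjusted p = 0.0325), and with the length trend removed -0.14 and not called (adjusted p = 0.209). Its longest transcript has 1952 bases (chr8:94386438-94395377, plus strand), and the antisense gene Gm15890 overlaps the gene by 535 bases. Sel1l, the partner subunit of the ligase HRD1, was at 399.7, 374, 366 and 355 normalised counts in the young and at 429, 523, 467, 376 and 455 in the old libraries. Old replicate 4 lay within the young range and the other 4 old libraries above it. The means were 374 ± 19.1 (SD, n = 4) and 449.9 ± 53.7 (SD, n = 5), with a log2 fold change of 0.26 (SE 0.11, 95% CI 0.04 to 0.48, limma adjusted p = 0.0397). The call was lost without young replicate 2, 3 or 4 or old replicate 2, 3 or 5 (limma adjusted p = 0.0564 to 0.0976), and on scaling to the table total (0.21, adjusted p = 0.116), whereas it was 0.40 with mitochondrial genes left out (adjusted p = 0.00373). The longest Sel1l transcript has 6300 bases (chr12:91806043-91849157, minus strand), and with the length trend removed the fold change was -0.026 (limma adjusted p = 0.847).

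The other genes of the response were taken as 6 lists, of which 117 of 126 genes were tested, 25 of them called higher and 55 lower in old kidneys. That is 68.4% called (21.4% higher and 47.0% lower), against 59.7% of all genes (29.2% higher and 30.5% lower). The median log2 fold change of the lists was -0.33 (-0.19 with mitochondrial genes left out). Leaving out the mitochondrial genes, which moved the median of all genes by 0.14, raised the share of higher genes among those called in the lists from 31.3% to 38.8%, and among all genes called from 48.9% to 58.5%. Of the 9 tested genes for sensors and their activation, 1 was called higher and 3 lower (44.4% called, against 59.7% of all genes), with a median of -0.01. Ern1, which codes for IRE1, was at 66.1 ± 9.41 normalised counts in young and 65.9 ± 9.56 in old kidneys (log2 fold change -0.01, limma adjusted p = 0.974), with a sign that changed with the scaling and with the library left out and a value of -0.35 with the length trend removed (limma adjusted p = 0.0830). Rtcb, the tRNA ligase that completes Xbp1 splicing, fell from 439 ± 21.8 to 299.97 ± 4.65 (log2 fold change -0.55, limma adjusted p = 5.2e-05, and -0.31 with the length trend removed, adjusted p = 0.00722). Eif2ak3, for PERK, was at 45.7 ± 6.08 and 67.3 ± 26.7 and was not called (0.45, limma adjusted p = 0.133), although it was without old replicate 1 (0.67, adjusted p = 0.0166), and the lowest value with 1 library left out was 0.31, without old replicate 5. Atf6b, the paralogue of Atf6, rose (0.45, limma adjusted p = 0.00383) and Creb3l1, a related membrane-bound factor, fell (-1.07, limma adjusted p = 4.11e-05). Creb3l3 and Ern2 were not in the table.

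Of the 12 genes for eIF2alpha phosphorylation and its reversal, 5 were called higher and 3 lower (66.7% called, against 59.7% of all genes), with a median of 0.15. Eif2s1, which codes for eIF2alpha, fell from 152 ± 14.1 to 88.7 ± 20.9 (-0.81, limma adjusted p = 0.000511). The kinase genes Eif2ak2 (1.13) and Eif2ak4 (0.86) rose (limma adjusted p = 0.00216 and 0.00451), and Eif2ak1 was not called (0.12, limma adjusted p = 0.436). Eif2b2 and Eif2b5, subunits of the exchange factor that phosphorylated eIF2alpha inhibits, rose by 1.03 and 1.20 on the log2 scale (limma adjusted p = 1.33e-07 and 1.73e-06). Of the other subunits, Eif2b1 fell from 72.2 ± 12.8 to 27.6 ± 8.08 (-1.40, limma adjusted p = 4.89e-05), the lowest value of the list, Eif2b3 rose (0.68, limma adjusted p = 0.0291) and Eif2b4 was not called (0.10, limma adjusted p = 0.466). Ppp1r15b, a subunit of the phosphatase that reverses the phosphorylation, fell from 324 ± 28.3 to 205 ± 19.0 (-0.66, limma adjusted p = 4.89e-05). Its stress-induced counterpart Ppp1r15a was at 46.3 ± 6.70 and 38.8 ± 17.3 and was not called (-0.33, limma adjusted p = 0.263), but was without old replicate 2 (-0.56, adjusted p = 0.0345), whereas without old replicate 1 it was -0.18 (limma adjusted p = 0.534), and with mitochondrial genes left out or the length trend removed it was -0.20 (adjusted p = 0.524 and 0.523). Among 18 tested targets of Atf4 and Ddit3, 5 were called higher and 4 lower (50% called, against 59.7% of all genes), with a median of -0.02. Sesn2, a stress-induced inhibitor of mTORC1 signalling, rose from 95.4 ± 20.8 to 329 ± 79.1 (1.77, limma adjusted p = 6.19e-08), and Vegfa, the endothelial growth factor, from 369 ± 15.7 to 868 ± 166 (1.21, limma adjusted p = 1.24e-07). Cebpb, which codes for a partner of CHOP, fell from 117 ± 21.2 to 53.1 ± 7.38 (-1.12, limma adjusted p = 1.17e-05). Atf3, Chac1, Fgf21, Slc7a11 and Trib3 were not in the table, and Asns was below the filter.

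Of 27 ER chaperones and folding enzymes, 6 were called higher (22.2%) and 13 lower (48.1%), with a median of -0.33. That is 70.4% called, against 59.7% of all genes tested (29.2% higher and 30.5% lower). Pdia4, a disulfide isomerase, rose from 155 ± 22.8 to 787 ± 92.0 normalised counts (2.34, limma adjusted p = 9.86e-12) and Pdia3, which acts with calreticulin on glycoproteins, from 471 ± 55.9 to 1722 ± 161 (1.87, limma adjusted p = 3.08e-11). Other disulfide isomerase genes of the list, picked after their values were seen, included P4hb (-0.71) and Pdia6 (-0.60), which fell (limma adjusted p = 3.03e-06 and 0.000824), and Pdia5, which was not called (-0.13, limma adjusted p = 0.587). Erp44 (-1.91), Txndc5 (-1.83) and Txndc11 (-1.42) of the list fell by more (limma adjusted p = 7.78e-09, 3.97e-07 and 4.66e-07). Dnajc10 rose (0.88, limma adjusted p = 4.38e-05). Fkbp2, a prolyl isomerase, fell from 535 ± 53.9 to 90.4 ± 30.5 (-2.60, limma adjusted p = 3.51e-10). Hspa5, which codes for BiP, the central ER chaperone, was at 1674 ± 271 and 1951 ± 335 and was not called (0.22, limma adjusted p = 0.143). It was called higher when mitochondrial genes were left out (0.36, limma adjusted p = 0.0188) and without young replicate 4 (0.32, adjusted p = 0.0420), whereas without young replicate 2 it was 0.13 and without old replicate 1 it was 0.14 (limma adjusted p = 0.414 and 0.348). Hsp90b1, for the ER form of HSP90, was not called at 0.09 (limma adjusted p = 0.505), and with 1 library left out it ranged from 0.00055 (without old replicate 5) to 0.17 (without old replicate 2), and the scalings and the length trend gave 0.039 to 0.23.

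Of 28 tested ERAD genes, 6 were called higher (21.4%) and 17 lower (60.7%), with a median of -0.42. That is 82.1% called, against 59.7% of all genes tested (29.2% higher and 30.5% lower). Syvn1, which codes for HRD1, the ligase that Sel1l and Herpud1 serve, fell from 173 ± 35.03 to 11.5 ± 4.53 (-3.87, limma adjusted p = 1.05e-09), with as few as 5 reads in an old library. Rnf5, a membrane-anchored ubiquitin ligase, fell from 1034 ± 34.95 to 57.3 ± 13.6 (-4.18, limma adjusted p = 9.23e-14), and Selenok, a selenoprotein of the ERAD complex, from 470.4 ± 29.9 to 188 ± 24.0 (-1.33, limma adjusted p = 1.46e-08). Of 23 genes of translocation and ER export, 2 were called higher (8.7%) and 15 lower (65.2%), with a median of -0.84. The share called was 73.9%, again against 59.7% of all genes tested. Among them Kdelr2, a receptor that returns ER proteins from the Golgi, fell by 1.80, Srpr, the receptor of the signal recognition particle, fell by 2.08 and Spcs1, a signal peptidase subunit, fell by 1.47 on the log2 scale (limma adjusted p = 3.21e-10, 1.57e-09 and 3.64e-09). Reads of Srpr, Rnf5 and Selenok are uncertain, since 17.7%, 10.1% and 8.01% of their 50-base stretches occur in other genes.

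**Figure D3:**
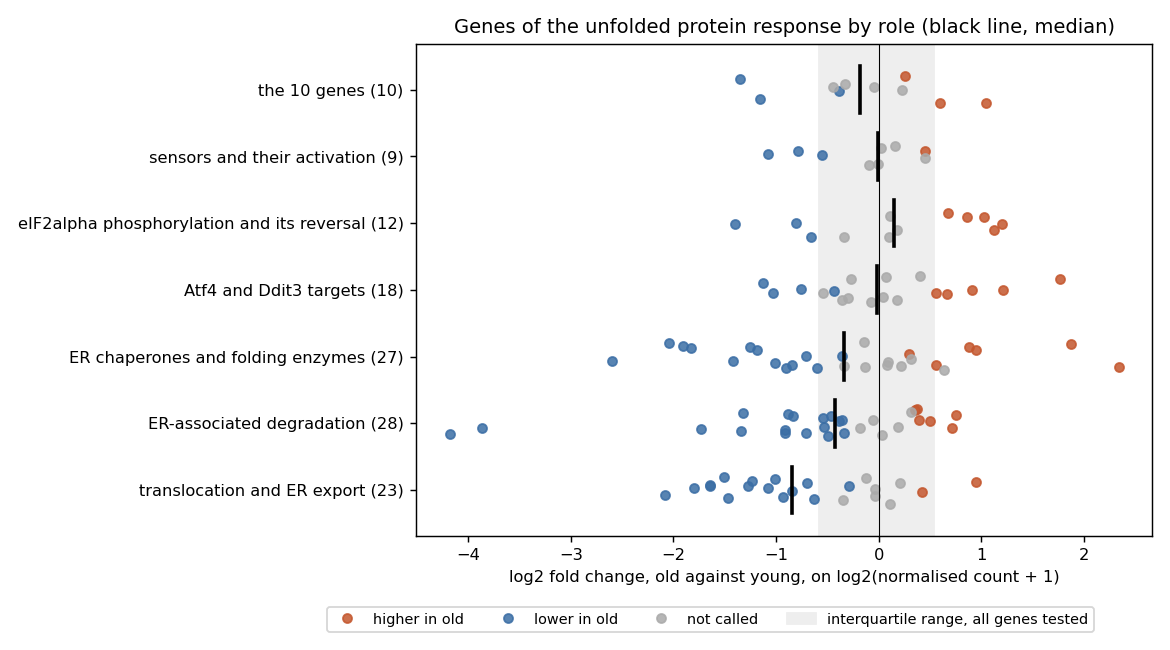
Log2 fold change, old against young, of the 10 genes and of the tested genes of the 6 lists (number in brackets), 1 point per gene, coloured by call, with the list median as a black line and the interquartile range of all genes as a grey band. The medians run from 0.15 for eIF2alpha phosphorylation to -0.84 for translocation and ER export, and Pdia4 (2.34) and Rnf5 (-4.18) lie at the extremes.

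Genes that share the promoter elements of Calr, Creld2 and Herpud1 were called in both directions, in a list drawn up after the values of the 10 genes were seen. Of 21 tested genes with an ERSE or ERSE-II match, 6 were called higher and 6 lower (57.1%), with a median log2 fold change of -0.04. Of 9620 tested genes with a promoter sequence, 60.1% were called, with a median of -0.02. The chaperone genes among them included Canx, for the membrane-bound counterpart of calreticulin, which was higher (0.56, limma adjusted p = 1.68e-05). Hspa5, Hsp90b1, Dnajc3, Calr and Creld2, of the same list, were not called. Pdia6, a disulfide isomerase, was lower (-0.60, limma adjusted p = 0.000824), as was Syvn1, whereas Ero1b, an ER oxidase, was higher (0.95, limma adjusted p = 0.0281). Of 220 tested genes with a CARE match, 64 were called higher (29.1%) and 74 lower (33.6%), with a median of -0.08. That is 62.7% called, beside 60.1% of genes with a promoter sequence (28.4% higher and 31.7% lower).

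The order of libraries within an age differed between groups of genes. Young replicate 4 was the highest of the young in 8 of the 10 genes, including all 4 folding factors, and in 14 of the 27 chaperones (51.9%), against 26.5% of all genes tested. In the ERAD list it was the lowest of the young in 14 of 28 genes (50%, against 28.5% of all genes), with a median of -0.14 on the log2 scale against the other young libraries. Young replicate 4 was also the highest of the young in 10 of 23 genes of translocation and ER export (43.5%, against 26.5% of all genes). Among targets of Atf4 and Ddit3 it was highest in 6 of 18 (33.3%). In the eIF2alpha list it tied with replicate 2 at 4 of 12. Other young libraries led other lists, replicate 1 with the highest value in 5 of 9 sensor genes (55.6%, against 24.5% of all genes) and replicate 3 in 12 of 28 ERAD genes (42.9%, against 24.5%). On the log2 scale young replicate 4 exceeded the mean of the other young libraries by 0.82 in Sdf2l1, 0.65 in Hyou1, 0.40 in Hspa5, 0.17 in Creld2 and 0.09 in Calr. The median over the 27 chaperones was 0.09, with Ero1b, an ER oxidase, at -1.49. Without this library the log2 fold change of Sdf2l1 between the ages was -0.95 and still called (limma adjusted p = 0.00172). Within the old, replicate 2 was the highest in 5 of the 10 genes (23.1% of all genes) and the lowest in Atf4 and Ddit3. Which libraries share a cage, day or animal is not given in the labels, and the order of libraries is a description with no test.

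**Figure D4:**
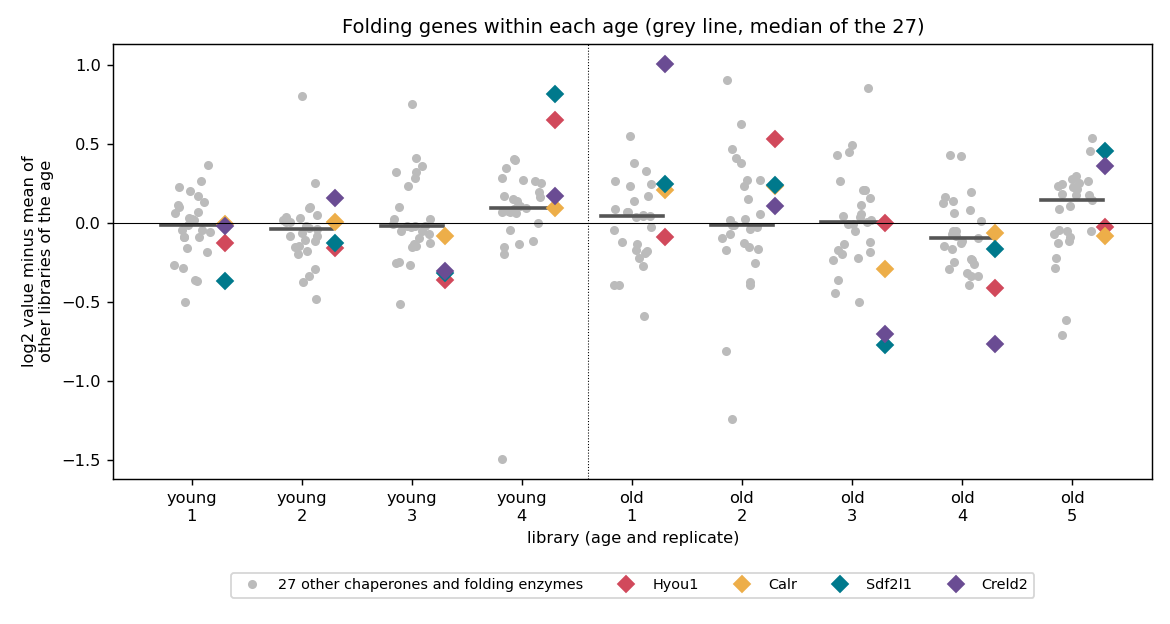
Log2 value of the 4 folding factor genes (coloured diamonds) and the 27 other chaperones and folding enzymes (grey points, median as a line) in each library, minus the mean of the other libraries of the same age. In young replicate 4 all 4 diamonds lie above 0, with Sdf2l1 at 0.82 and Hyou1 at 0.65, and the median of the 27 is at 0.09.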

How the data were processed

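Kidney RNA of 4 young and 5 old samples of wild-type mice was sequenced as stranded single reads of transcript 3' ends. Per the labels, 500 ng of RNA (mean integrity number 7.5) was used per library. The authors aligned the reads to GRCm39 (TopHat2 2.0.10), used HTSeq 0.6.1 for strand-specific counts per gene and scaled them with DESeq size factors. The deposited signal is therefore a normalised count, and 100% of values were whole multiples of the smallest one in their library (within 0.02). Old and young were compared with limma 3.58.1 in R 4.3.3 (eBayes with trend) on log2(normalised count + 1). The 12667 genes that reached 10 normalised counts in 4 or more libraries were tested, with Benjamini-Hochberg adjustment. Alternatives included other pseudocounts (0.1 and 5), filters and scalings, edgeR 4.0.16, DESeq2 1.42.0, a lowess removal of the transcript length trend and each library left out. The limma step was checked on simulated counts in which a small part of the genes changed and no length trend was set. That setting is unlike these data, so the check does not cover them. The members and lists were chosen with earlier results of these data known. Beside the members, the named genes were the 3 of each list with the largest moderated t among those called and averaging 50 or more normalised counts, 7 core genes of the response (Ern1, Eif2ak3, Hspa5, Hsp90b1, Ppp1r15a, Trib3, which was not in the table, and Syvn1, which the first part also names), and 1 gene most alike to each member. Other genes were named after their values were seen. Coordinates of genes are from GRCm38 (GENCODE vM21, by symbol, 98.28% matched), which is not the build of the counts. CVs of counting cover counting error only, and no use of molecular identifiers is stated.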

Additional observations from a re-analysis of the deposited data

Results flagged for a closer look

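In 66 comparisons of the highest and lowest library of an age with its neighbours (Dixon's criterion on log2(normalised count + 1)), 2 stood apart, and chance would give about 3.3. Fkbp2 was at 144 normalised counts in old replicate 2, whereas the remaining old libraries held 71.0 to 81.3 (gap over range 0.809 on that log2 scale). Ppp1r15a was at 56.4 normalised counts in young replicate 2, whereas the remaining young libraries held 42.2 to 43.5 (gap over range 0.896 on that log2 scale). On normalised counts 3 stood apart, Fkbp2 (0.859) and Ppp1r15a (0.909) in the same libraries and Sdf2l1 in young replicate 4 (0.844).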

How the results depend on the processing

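No paired analysis was possible because the library titles carry no replicate numbers shared between the ages. Over the 20 alternatives the number of the 10 genes called was 5 to 7, apart from 4 of the 7 that passed a minimum mean of 100 normalised counts. That minimum gave 4101 genes called among 5655 tested, and 59 in the pathway lists. With 1 library left out, 6900 to 7626 genes were called in all, 76 to 83 in the lists and 5 to 7 among the 10. Directions turned for Calr with mitochondrial genes left out (0.10) and with the length trend removed (0.18), for Sel1l with the length trend removed (-0.026) and for Ern1 with mitochondrial genes left out (0.13), none of them called. With 1 library left out, Calr ranged from -0.089 to 0.016 and Ern1 from -0.071 to 0.082. The causes were not tested. Of 7 members whose call or direction depended on a setting, Atf6 and Herpud1 lost the call on removal of the length trend only. Counts of 3' ends miss splicing, translation and protein, and Creld2, Sdf2l1 and Ddit3 rest on the fewest reads.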

Other observations

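The gene whose values were most alike to those of each member over the 9 libraries was Zfas1 for Xbp1 (Pearson r 0.987), Sypl2 for Sdf2l1 (0.986), Gtpbp10 for Herpud1 (0.986), Blmh for Ddit3 (0.988), Rbm6 for Atf6 (0.983), A230059L01Rik for Atf4 (0.982), Hyou1 with Med14 (0.949), Creld2 with Esm1 (0.949), Calr with Fahd1 (0.946) and Sel1l with Slc22a30 (0.926). Each is the highest of 8150 genes compared (8151 for Creld2), the libraries fall into 2 ages, and the values are a description.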
